A study of Mus musculus with 12 samples.

Results

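The 9 genes described here encode the machinery by which pancreatic beta cells sense glucose and release insulin: Slc2a2, G6pc2, Abcc8, Kcnj11, Trpm5, Cacna1d, Slc30a8, Glp1r and Ucn3. They were chosen by name, from the symbols in the authors' deposited comparison table, and 9 of 9 had an entry among its 13703 genes. The count table held 49315 genes, of which 13115 had enough counts for a test, these 9 included. The donors of the islets were wild-type NOD/ShiLtJ females, euglycemic and 9 weeks old when treatment began, of a strain prone to autoimmune diabetes. One group of 6 libraries came from mice given anti-CD3, an antibody against the T cell receptor complex, at 2.5 mg/kg once a week for 4 weeks. The other group of 6 came from mice of the same strain given IgG as the control antibody on the same weekly schedule. Islets were collected by collagenase P digestion 2 or 3 days after the last dose, and their polyadenylated RNA was sequenced. The labels do not say whether a library holds the islets of 1 mouse or of several, and p-values describe no more than the spread among these libraries.

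Beta cells couple blood glucose to insulin release through their own metabolism. Glucose enters through the transporter GLUT2 and is phosphorylated and broken down, and the ATP made from it closes potassium channels, so that the membrane depolarises, voltage-gated calcium channels open and insulin granules fuse with the membrane. Gut hormones such as GLP-1 amplify that release through cAMP, and mature beta cells also secrete urocortin 3, which acts on neighbouring delta cells.

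Libraries held 10994337 to 19284740 counts in anti-CD3 and 11891132 to 17628347 in IgG. Acinar genes, which encode digestive enzymes of the exocrine pancreas, took 69.6% to 73.6% of the counts in anti-CD3 and 32.7% to 72.5% in IgG. IgG 5, with 56.0%, and IgG 6, with 32.7%, stood apart from the other 10 libraries in this share. The 9 genes together took 0.0168% to 0.0509% of the counts in anti-CD3 and 0.0280% to 0.0637% in IgG. The defining endocrine markers Ins1, Ins2, Iapp, Mafa, Pdx1, Nkx6-1, Gcg, Sst, Hhex and Ppy were detected in all 12 libraries, and Hhex had the lowest count among them, 27 in 1 anti-CD3 library.

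None of the 9 genes passed the test for a difference between anti-CD3 and IgG. With edgeR's quasi-likelihood test and Benjamini-Hochberg adjustment at 0.05, 0 of 9 were called, against 0.0762% of all 13115 genes, and DESeq2 and limma-voom also called 0 of 9, DESeq2 where it called 3.96% of genes with an adjusted p and limma-voom where it called 1.03%. The authors' deposited table likewise gave 0 of these 9 an adjusted p under 0.05, where it called 4.55% of its genes with an adjusted p. The direction was lower in anti-CD3 for 8 of 9, where 55.2% of all genes tested were lower, and G6pc2 was the exception. The median log2 fold change of the 9 was -0.29, against -0.05 over all genes tested. Without IgG 5 it was -0.09, against -0.04 over all genes, with 7 of 9 lower and 0 of 9 at an unadjusted p under 0.05. At an unadjusted p under 0.05 edgeR had 1 of 9 lower, Kcnj11, where 8.68% of all genes were, and 0 of 9 higher, where 9.68% were. DESeq2 had Kcnj11 lower and G6pc2 higher at that unadjusted level, where 9.93% of genes were lower and 9.76% higher. In 0 of 9 genes did the ranges of both groups fail to overlap, against 1.85% of all genes (0.64% with all anti-CD3 libraries below all IgG libraries and 1.2% above). Without IgG 5 and IgG 6, 0 of 9 passed and 7 of 9 were lower, Slc30a8 being at 0.0066. In bulk RNA, the number of beta cells, the RNA per beta cell and the share of other cells' RNA cannot be told apart.

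**Figure D1:**
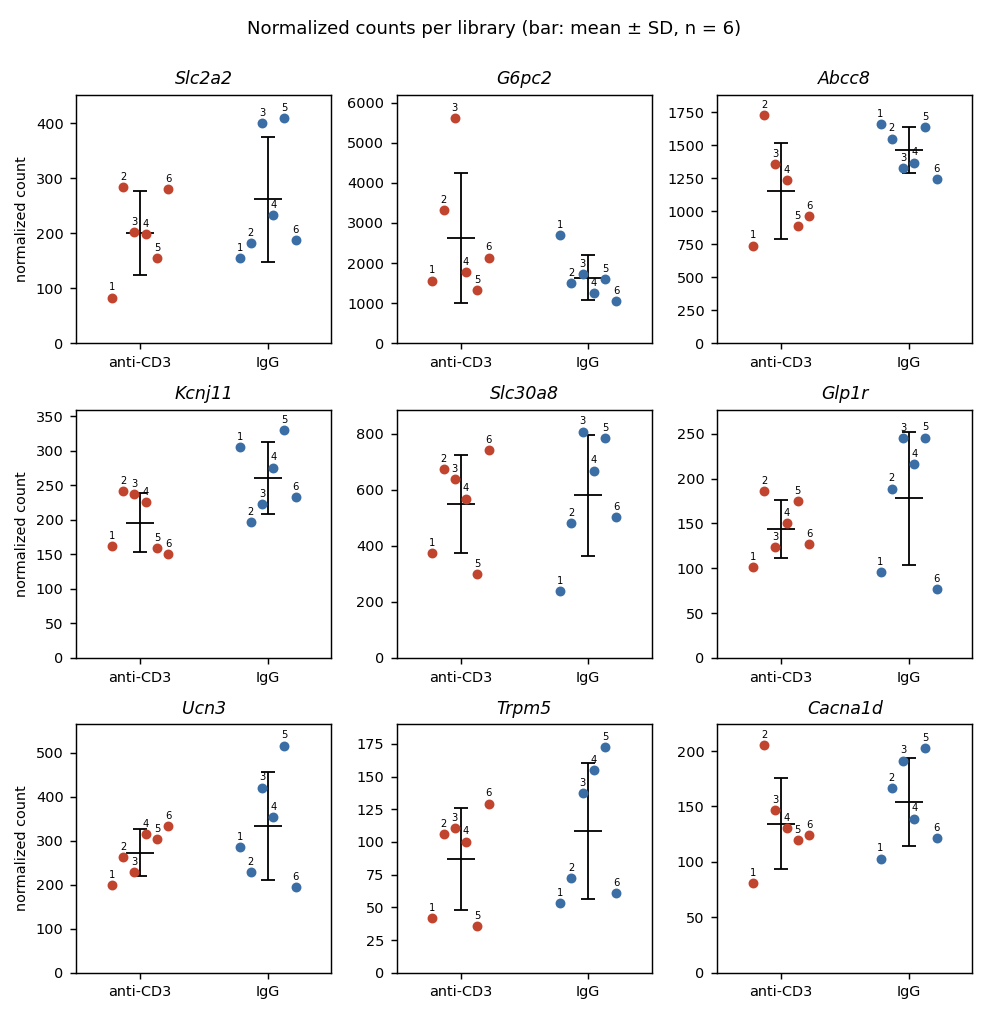
Normalized counts (vertical axes, from 0) of the 9 genes in 6 anti-CD3 libraries (red, left) and 6 IgG libraries (blue, right). Numbers mark the replicate, bars the mean ± SD. The ranges of the groups overlap in all 9 genes, and G6pc2 has its highest points in anti-CD3 3 and anti-CD3 2.

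Entry of glucose and the reversal of its phosphorylation are represented by Slc2a2 and G6pc2, and G6pc2 was the only gene of the 9 with a higher value in anti-CD3. Slc2a2 encodes GLUT2, the main glucose transporter of the mouse beta cell. The deposited normalized count of Slc2a2, which is the raw count divided by 1 size factor per library, ran from 83.0 over a median of 200.4 to 284 in anti-CD3 and from 155 over 211 to 410.1 in IgG. Anti-CD3 1 was the lowest library and IgG 5 and IgG 3 the highest, and the other libraries of the groups overlapped. Anti-CD3 over IgG, the log2 fold change was -0.37 ± 0.32 (SE, n = 6 per group; edgeR adjusted p = 0.536), with a 95% interval from -1.05 to 0.31. It was -0.18 without IgG 5, -0.21 without IgG 3 and -0.21 without anti-CD3 1.

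G6pc2 encodes the glucose-6-phosphatase of islets, which returns glucose-6-phosphate to glucose and so undoes the first step of glycolysis. Normalized counts of G6pc2 ran from 1329.7 over a median of 1952 to 5613 in anti-CD3 and from 1059 over 1551 to 2687 in IgG. Anti-CD3 3 and anti-CD3 2, at 5613 and 3321, lay above all 6 IgG libraries, while the other 4 anti-CD3 libraries lay within the IgG range. That is a log2 fold change of 0.69 ± 0.35 (SE, n = 6 per group; edgeR adjusted p = 0.309), with a 95% interval from -0.07 to 1.44, and corresponds to a 1.61-fold higher level that did not pass. Without anti-CD3 3 it was 0.31 (edgeR adjusted p = 0.591), and over the 23 alternative settings its adjusted p lay between 0.172 and 0.757. In the authors' deposited table G6pc2 had a log2 fold change of 0.68, with an unadjusted p of 0.0431 and an adjusted p of 0.216.

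Slc2a2 (ENSMUSG00000027690) spans 28697903 to 28731359 on chromosome 3 and G6pc2 (ENSMUSG00000005232) 69211073 to 69227841 on chromosome 2. The promoters of this pair are shown because the 2 genes lay on opposite sides of 0. Each window runs from 250 bases before to 50 bases after the annotated start (RefSeq, GRCm38.p6), Slc2a2 at chr3:28697653-28697952 and G6pc2 at chr2:69210823-69211122, both on the plus strand. Capitals mark the E-box CAGNTG and the homeodomain core TAAT, searched on both strands, so that ATTA is TAAT on the minus strand.
Slc2a2: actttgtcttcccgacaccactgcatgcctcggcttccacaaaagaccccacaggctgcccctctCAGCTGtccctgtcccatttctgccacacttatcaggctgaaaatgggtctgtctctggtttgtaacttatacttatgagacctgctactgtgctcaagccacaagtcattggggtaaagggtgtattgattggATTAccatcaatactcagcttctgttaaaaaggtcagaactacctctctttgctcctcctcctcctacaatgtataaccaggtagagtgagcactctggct
G6pc2: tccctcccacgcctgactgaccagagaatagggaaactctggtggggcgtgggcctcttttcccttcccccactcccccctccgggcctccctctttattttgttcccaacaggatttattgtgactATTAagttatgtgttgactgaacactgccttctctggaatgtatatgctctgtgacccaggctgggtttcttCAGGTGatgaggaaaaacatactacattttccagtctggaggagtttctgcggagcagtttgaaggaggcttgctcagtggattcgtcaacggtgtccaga
Each of the printed windows held 1 CAGNTG and 1 TAAT, with 0 overlapping. G6pc2 has a second RefSeq window, at chr2:69219699-69219998, with 3 of each motif, which is not printed because its start lies 8876 bases inside the annotated gene. Of all 32851 promoter windows of that length, 51.4% held CAGNTG and 58% held TAAT. A match describes letters and shows no binding. RefSeq windows were matched for 6 of 9 genes, 8 windows in all.

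The ATP-sensitive potassium channel links metabolism to membrane voltage and is built from the products of Abcc8 and Kcnj11. Abcc8 encodes the sulfonylurea receptor SUR1, its regulatory subunit. Abcc8 had normalized counts from 740.0 over a median of 1102 to 1728 in anti-CD3 and from 1244 over 1460.1 to 1662 in IgG. The anti-CD3 libraries lay on both sides of the narrow IgG range, with 4 of 6 below all IgG libraries and anti-CD3 2 above all of them. Abcc8 had a log2 fold change of -0.34 ± 0.19 (SE, n = 6 per group; edgeR adjusted p = 0.359), with a 95% interval from -0.75 to 0.07.

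Kcnj11 encodes Kir6.2, the pore of the same channel. Its normalized count ran from 151 over a median of 194 to 241 in anti-CD3 and from 197 over 255 to 331 in IgG. All 6 anti-CD3 libraries lay below the IgG mean of 261 and 3 of them, anti-CD3 1, 5 and 6, below all IgG libraries, but the ranges overlapped. Kcnj11 had the smallest p of the 9, with a log2 fold change of -0.40 ± 0.18 (SE, n = 6 per group), an unadjusted p of 0.0386 and an edgeR adjusted p of 0.249. The 95% interval, which takes no account of the number of genes tested, ran from -0.78 to -0.02. Over the 12 fits with 1 library left out, the log2 fold change lay between -0.47 and -0.31, and the unadjusted p lay between 0.0212 and 0.0992 and was above 0.05 in 6 of them. In the authors' deposited table it was -0.40, with an adjusted p of 0.204.

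Both channel genes lie on chromosome 7 of GRCm38, Kcnj11 (ENSMUSG00000096146) at 46093953 to 46100764 and Abcc8 (ENSMUSG00000040136) at 46104523 to 46180033, on the minus strand with 3758 bases between them. Within a library, the ratio of Kcnj11 to Abcc8 lay between 0.140 and 0.220 on raw counts in anti-CD3 and between 0.127 and 0.202 in IgG. Its log2 mean (normalized counts, pseudocount 1) was -2.52 ± 0.22 in anti-CD3 and -2.50 ± 0.25 in IgG (SD, n = 6 each). The difference of -0.02 had an exact two-sided permutation p of 0.890 (0.890 after adjustment over the 3 ratios computed, where 0.00216 is the smallest p possible), and with single libraries left out it lay between -0.11 and 0.04. A difference in the ratio of the subunits was not detectable with these libraries.

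Downstream of the channel, Trpm5 and Cacna1d encode cation channels. Trpm5 encodes a channel opened by intracellular calcium that passes sodium ions. Normalized counts of Trpm5 ran from 35.5 over a median of 103 to 129 in anti-CD3 and from 53.0 over 105 to 172 in IgG. Anti-CD3 5 and anti-CD3 1 lay below all IgG libraries and the other 4 within their range, and the medians were close. For Trpm5 the log2 fold change was -0.29 ± 0.38 (SE, n = 6 per group; edgeR adjusted p = 0.696), with a 95% interval from -1.10 to 0.52. It was -0.09 without IgG 5, -0.13 without anti-CD3 5, -0.15 without anti-CD3 1 and -0.17 without IgG 4. Its raw counts were the lowest of the 9, 23 to 221 per library.

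Cacna1d encodes the pore of the L-type calcium channel Cav1.3. In normalized counts, Cacna1d ran from 81.2 over a median of 127 to 205 in anti-CD3 and from 103 over 153 to 203 in IgG. Anti-CD3 1 lay below and anti-CD3 2 above all IgG libraries. The log2 fold change was -0.18 ± 0.22 (SE, n = 6 per group; edgeR adjusted p = 0.682), with a 95% interval from -0.66 to 0.30, and with an offset for transcript length it was 0.02. It was -0.07 without anti-CD3 1 or without IgG 5, -0.11 without IgG 3 and -0.35 without anti-CD3 2. Cacna1c, which encodes the other L-type pore of beta cells, Cav1.2, was at -0.19 ± 0.36 (SE; edgeR adjusted p = 0.797). The log2 ratio of Cacna1d to Cacna1c averaged -0.61 ± 0.59 in anti-CD3 and -0.72 ± 0.70 in IgG (SD, n = 6 each), with a difference of 0.11 (exact permutation p = 0.792, adjusted 0.890).

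Both genes share exonic bases with a neighbour on the opposite strand, Trpm5 220 bases with Tssc4 and Cacna1d 589 bases with Chdh. The sources used here do not give the strand setting of the counting, and reads from those bases may belong to either gene. Trpm5 (ENSMUSG00000009246) spans 143069153 to 143094642 on chromosome 7, and Cacna1d (ENSMUSG00000015968) spans 30039939 to 30491455 on chromosome 14 (GRCm38).

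Of the granule, receptor and maturity genes, Slc30a8 encodes ZnT8, which loads zinc into insulin granules. Slc30a8 had normalized counts from 298 over a median of 603 to 742 in anti-CD3 and from 238 over 586 to 808 in IgG. IgG 1, at 238, was the lowest of all 12 libraries, and the groups overlapped almost wholly. Its log2 fold change was -0.07 ± 0.29 (SE, n = 6 per group; edgeR adjusted p = 0.910), with a 95% interval from -0.69 to 0.54. Its sign changed in 5 alternatives, 4 of which left out 1 library.

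Glp1r encodes the receptor for GLP-1, through which incretins raise cAMP. Glp1r had normalized counts from 101.1 over a median of 139 to 186 in anti-CD3 and from 76.6 over 202 to 246 in IgG. The IgG libraries were split, with IgG 6 and IgG 1 below all 6 anti-CD3 libraries and the other 4 above all of them. The log2 fold change was -0.29 ± 0.28 (SE, n = 6 per group; edgeR adjusted p = 0.586), with a 95% interval from -0.90 to 0.31. Without IgG 5 it was -0.16, without IgG 3 -0.18 and without IgG 6 -0.46. It was -0.16 with the length offset and -0.64 with the acinar covariate (edgeR adjusted p = 0.561).

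Ucn3 encodes urocortin 3, a peptide that marks mature beta cells in the mouse. Its normalized count ran from 199 over a median of 283 to 333 in anti-CD3 and from 195 over 320.5 to 517 in IgG. All 6 anti-CD3 libraries lay below the IgG mean of 334, to which IgG 5 contributed 517, and all 6 lay within the IgG range. Ucn3 had a log2 fold change of -0.28 ± 0.22 (SE, n = 6 per group; edgeR adjusted p = 0.503), with a 95% interval from -0.76 to 0.19. Without IgG 5 it was -0.09, and -0.47 in the fits with the acinar covariate or the length offset. On GRCm38, Slc30a8 (ENSMUSG00000022315) spans 52295553 to 52335798 on chromosome 15, Glp1r (ENSMUSG00000024027) 30901817 to 30940791 on chromosome 17, and Ucn3 (ENSMUSG00000044988) 3940688 to 3945349 on chromosome 13.

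**Figure D2:**
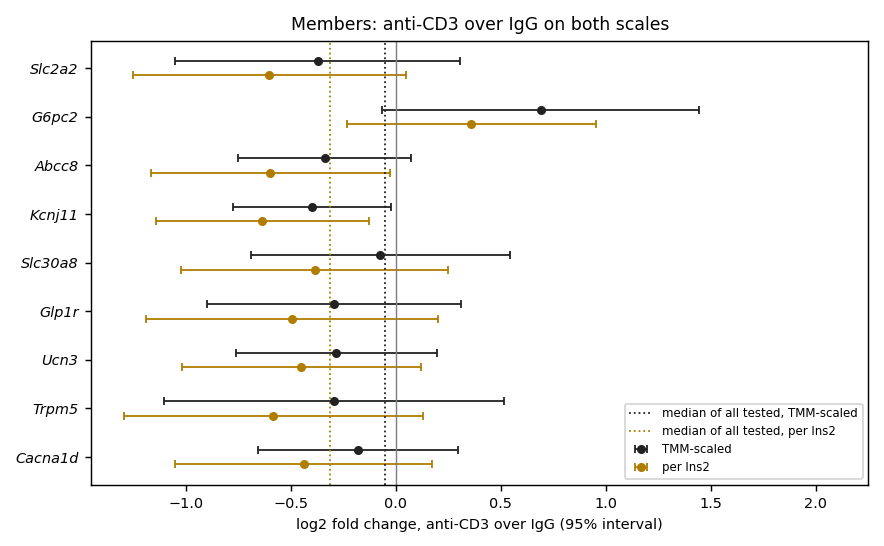
Log2 fold change, anti-CD3 over IgG (horizontal axis) for each of the 9 genes (down the page), with 95% intervals, from the fit scaled by TMM (black) and from the fit per Ins2 transcript (ochre). Dotted lines give the median of all genes tested, -0.05 and -0.31. The intervals cross 0 in 8 of 9 genes on the TMM scale, and the points of 8 genes lie to the left of 0 on both.

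The 9 genes differed widely in level. Normalized counts per kilobase of merged exons averaged 1328 ± 823 for G6pc2 in anti-CD3 and 829 ± 288 in IgG (SD, n = 6 each), the highest of the 9 in both groups. Slc30a8 followed with a level of 279 per kilobase in anti-CD3 and 295 in IgG, then Ucn3 with 185 and 226, Abcc8 with 143 and 181, and Kcnj11 with 53.4 and 70.9. Below them stood Slc2a2 with 34.8 per kilobase in anti-CD3 and 45.5 in IgG, Glp1r with 24.8 and 30.6, Trpm5 with 13.6 and 17.0, and Cacna1d with 10.7 and 12.2. Neighbours in this order had separate ranges in both groups only between G6pc2 and Slc30a8 and between Abcc8 and Kcnj11, and the other 6 pairs of neighbours overlapped. Kcnj11 stood below Abcc8 in 6 of 6 libraries of each group. With the longest annotated transcript as the length, Abcc8 moved from rank 4 to rank 3 in anti-CD3 and to rank 2 in IgG. Ins2, for comparison, stood at 101623 per kilobase in anti-CD3 and 84616 in IgG.

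Dividing each gene by the Ins2 transcript of the same library expresses it relative to insulin RNA, since Ins2 encodes insulin. With this division the SD of the log2 values fell in 3 of 9 genes in anti-CD3 and 5 of 9 in IgG. Ins2 itself was at a log2 fold change of 0.27 ± 0.24 (SE, n = 6 per group; edgeR adjusted p = 0.554). It took 0.459% to 1.11% of the counts in anti-CD3 and 0.588% to 1.55% in IgG. On the Ins2 scale 8 of 9 genes were again lower, as were 79% of all 13114 genes tested, and this scaling moved the median of all genes to -0.31. The median of the 9 was -0.49, and 0 of 9 passed, where edgeR called 0 genes of all. Abcc8 and Kcnj11 were lower at an unadjusted p under 0.05, 2 of 9 against 14.4% of all genes, and 0 of 9 were higher against 0.9%. The count of the 9 at that level was 5 without IgG 1, 4 without anti-CD3 2, 3 without anti-CD3 5, 1 without any of 6 other single libraries (anti-CD3 1, 3 and 6, IgG 2, 4 and 6) and 0 with the length offset. All 9 ranges overlapped between the groups, where 0.648% of all genes had ranges that did not.

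Kcnj11 had 1.01 to 2.03 counts per 1000 Ins2 counts in anti-CD3 and 1.99 to 2.79 in IgG, so that all but anti-CD3 2 and anti-CD3 4 lay below the IgG libraries. Its log2 fold change per Ins2 was -0.64 ± 0.25 (SE; edgeR adjusted p = 0.287). Abcc8 had 5.36 to 14.5 counts per 1000 Ins2 counts in anti-CD3 and 11.4 to 18.6 in IgG, and was at -0.60 ± 0.27 (SE; edgeR adjusted p = 0.317). Anti-CD3 2 was the single anti-CD3 library of Abcc8 within the IgG range on this scale. Slc2a2 was at -0.60 ± 0.31 and Trpm5 at -0.58 ± 0.34 (SE; edgeR adjusted p = 0.340 and 0.378). Trpm5 lay below the IgG mean of 0.990 counts per 1000 Ins2 counts in 6 of 6 anti-CD3 libraries. G6pc2 had 11.3 to 29.8 counts per 1000 Ins2 counts in anti-CD3 and 11.1 to 18.9 in IgG, a log2 fold change of 0.36 ± 0.29 (SE; edgeR adjusted p = 0.492). Glp1r at -0.49, Ucn3 at -0.45, Cacna1d at -0.44 and Slc30a8 at -0.39 did not pass either.

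Per Ins1 and per Iapp transcript, 8 of the 9 genes were lower and 1 higher, as per Ins2, while per Pdx1 all 9 were higher. Pdx1 is a low denominator, with 43 to 138 raw counts per library in anti-CD3 and 107 to 267 in IgG. Iapp had at least 8219 and Ins2 at least 65475, so counting noise in Pdx1 weighs more on its ratios. The share of all genes that was lower varied with the transcript used. Of all genes tested, 79% were lower per Ins2, 58.9% per Ins1, 45.4% per Iapp and 19.96% per Pdx1, a beta cell transcription factor gene that was itself at -0.44 ± 0.17 (SE; edgeR adjusted p = 0.198). Per Pdx1 transcript the 8 genes that were lower per Ins2 were between 0.02 (Kcnj11) and 0.39 (Slc30a8), and G6pc2 passed at 1.11, 1 of 9 where 16.2% of all genes passed as higher. Transcript length went with the groups over all genes: the median log2 fold change was 0.39 for genes whose longest transcript is up to 1000 bases and -0.22 for those over 6000 bases. The longest transcript of Ins2 is 918 bases, and those of the 9 genes run from 1478 (Ucn3) to 9658 (Cacna1d). With an offset for length, the median of the 9 per Ins2 was -0.16, against 0.04 over all genes, and 7 of 9 were lower.

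**Figure D3:**
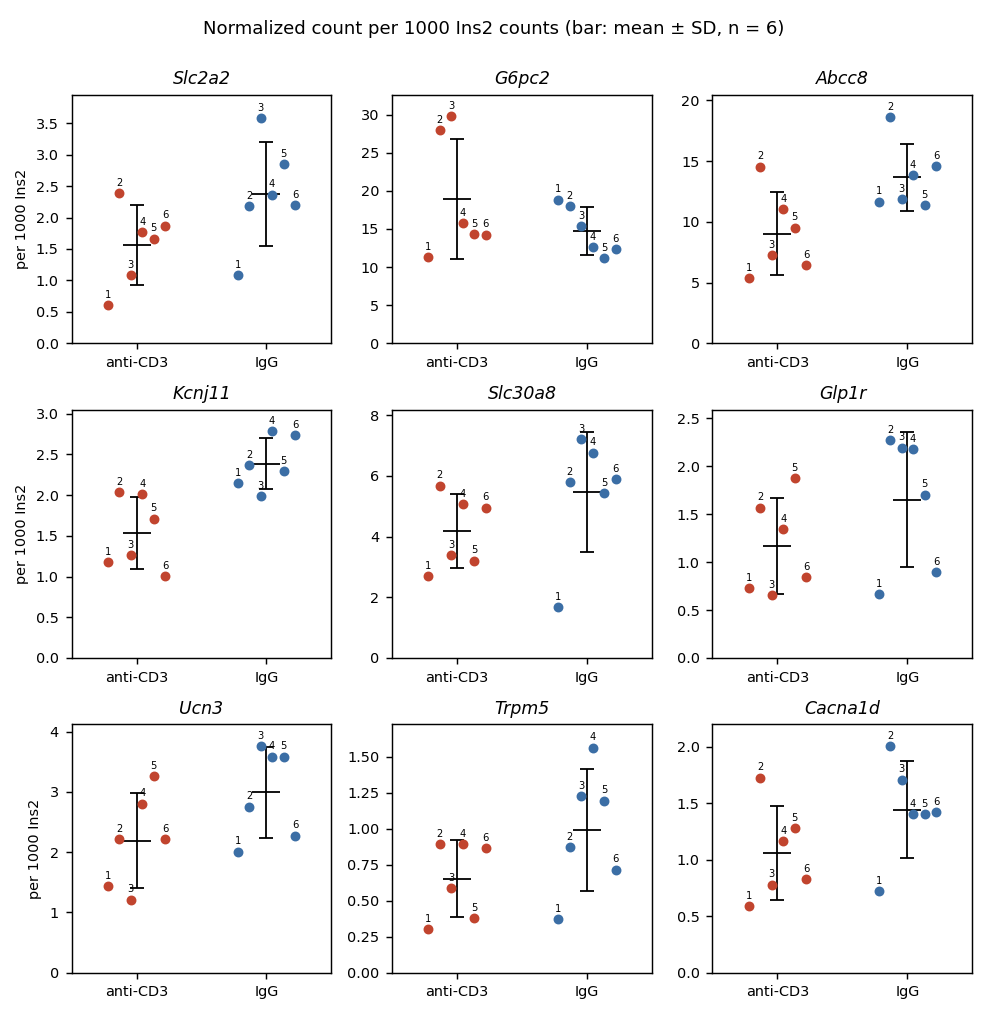
Counts of each gene per 1000 Ins2 counts (vertical axes, from 0) in 6 anti-CD3 libraries (red, left) and 6 IgG libraries (blue, right). Numbers mark the replicate, bars the mean ± SD. Kcnj11 in anti-CD3 lies between 1.01 and 2.03 against 1.99 to 2.79 in IgG, and IgG 1 is the lowest IgG point of Slc30a8 and Cacna1d.

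The mean of the 9 log2 CPM profiles, each centred on its own mean, was lowest in anti-CD3 1 at -0.70 and anti-CD3 5 at -0.45, followed by IgG 6 at -0.38. It was highest in IgG 5 at 0.59 and IgG 3 at 0.43, followed by anti-CD3 2 at 0.36. Among the 36 pairs of genes, Abcc8 and Kcnj11 had the most alike profiles, with a root mean square difference of 0.216 on the log2 scale, and G6pc2 and Glp1r the least alike, at 0.868. The measure is not scaled by the spread of a gene, so genes that vary little come out alike. Kcnj11 and Abcc8 had the smallest log2 ranges of the 9, 1.15 and 1.24. G6pc2 took part in the 8 least alike pairs over the 12 libraries, a measure that includes the difference between the groups. With profiles centred within each group, its pairs ran from 0.422 (with Abcc8) to 0.783 (with Glp1r), and Kcnj11 and Trpm5 were at 0.630. Cacna1d lay closest to the mean profile of the 9, at 0.18, and G6pc2 farthest, at 0.63.

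Outside the 9, the genes whose profile over 12 libraries came closest to that mean profile were Phf20l1 at a root mean square difference of 0.132, Zdhhc2 at 0.135, Trpc1 at 0.148, Cbll1 at 0.150, Srpk2 at 0.161 and Myo6 at 0.167, where the median of all genes was 0.533. With profiles centred within each group, they were Mtfp1 at 0.120, Zdhhc2 at 0.129, Phf20l1 at 0.131, Dop1a at 0.136, Mum1l1 at 0.137 and Trpc1 at 0.148, against a median of 0.494. Zdhhc2, Phf20l1 and Trpc1 stood in both lists. The points of such a profile share library and depth, and the likeness is a description.

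**Figure D4:**
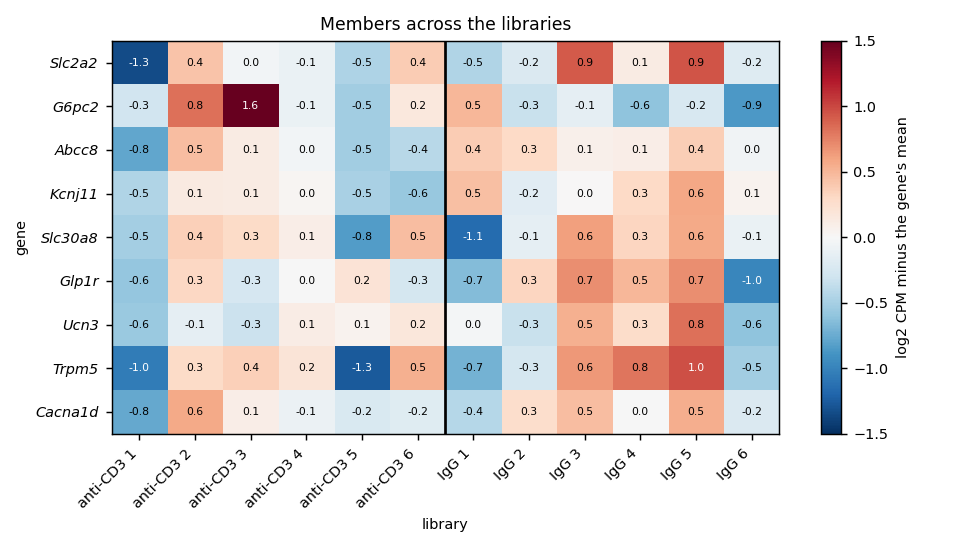
Log2 CPM of each gene (down the page) minus its mean over the 12 libraries, by library (6 anti-CD3, left of the line, and 6 IgG), in red where above and blue where below the gene's mean, with the value in each cell. Anti-CD3 1 is below the mean in all 9 genes, and G6pc2 has the highest value of all in anti-CD3 3.

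Other genes of the pathway were described in 6 lists, and 0 genes of any list passed with edgeR. Over all genes tested, 55.2% were lower, and at an unadjusted p under 0.05 edgeR had 8.68% lower and 9.68% higher. Of 20 tested genes of glucose uptake and metabolism, 12 were higher and 8 lower, with a median log2 fold change of 0.16. Per Ins2, 8 were higher and 12 lower, with a median of -0.20, where 79% of all genes were lower and their median was -0.31. On the TMM scale the median of the list was 0.04 without IgG 3. At an unadjusted p under 0.05, 5 were higher and 1 lower, and 0 passed with edgeR, DESeq2 or limma-voom. Slc2a1, which encodes the transporter GLUT1, was at 0.91 ± 0.29 and Mdh1, cytosolic malate dehydrogenase, at 0.45 ± 0.16 (SE; edgeR adjusted p = 0.141 and 0.166). Me1, malic enzyme, was at -0.66 ± 0.20 and Glud1, glutamate dehydrogenase, at -0.17 ± 0.12 (SE; edgeR adjusted p = 0.122 and 0.476).

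Of 24 tested genes of excitability and calcium, 5 were higher and 19 lower, with a median of -0.35. At the unadjusted level 5 were lower and 0 higher, where 8.68% of all genes were lower and 9.68% higher. With edgeR or limma-voom 0 passed. DESeq2, which called 3.96% of genes with an adjusted p, called 1, Cacna1h, the pore of a T-type calcium channel, at a DESeq2 adjusted p of 0.00742. Its normalized count was 21.3 to 36.9 in anti-CD3 and 37.1 to 102 in IgG, ranges that nearly touched but did not overlap. Of all genes, 0.64% lay lower without overlap. Cacna1h was named for its small p, so this is no separate support. Its edgeR log2 fold change was -1.12 ± 0.26 (SE; adjusted p = 0.0663). Atp2a3, the SERCA3 calcium pump, was at -0.61 ± 0.24 (SE; edgeR adjusted p = 0.202). Scn8a, a sodium channel, and Kcnk16, the potassium channel TALK-1, were at 0.23 ± 0.32 and 0.16 ± 0.19 (SE; edgeR adjusted p = 0.712 and 0.685).

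Of 23 tested receptor and cAMP genes, 5 were higher and 18 lower, with a median of -0.25. At the unadjusted level 4 were lower and 0 higher, where 8.68% of all genes were lower and 9.68% higher. With any of the 3 tools 0 passed. Gpr39, a zinc-sensing receptor, was at -0.87 ± 0.30 and Casr, the calcium-sensing receptor, at -0.78 ± 0.30 (SE; edgeR adjusted p = 0.165 and 0.202). Chrm3, the muscarinic acetylcholine receptor M3, was at 0.67 ± 0.33 and Pde8b, a phosphodiesterase that breaks down cAMP, at 0.28 ± 0.32 (SE; edgeR adjusted p = 0.301 and 0.656).

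Of 29 tested exocytosis genes, 8 were higher and 21 lower, with a median of -0.17, or -0.07 without IgG 5. At the unadjusted level 2 were higher and 4 lower, where 9.68% of all genes were higher and 8.68% lower. With edgeR or limma-voom 0 passed. DESeq2, which called 3.96% of genes with an adjusted p, called 1, Vamp8, a vesicle SNARE protein, at a DESeq2 adjusted p of 0.0401. Its normalized count was 569.6 to 1051 in anti-CD3 and 324 to 697 in IgG, and its edgeR log2 fold change was 0.70 ± 0.20 (SE; adjusted p = 0.112). Rab3b, a granule GTPase, was at -0.54 ± 0.20 (SE; edgeR adjusted p = 0.187). Rph3al, the Rab effector Noc2, was at 0.42 ± 0.20 (SE; edgeR adjusted p = 0.270).

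Of 23 tested beta cell identity genes, 5 were higher and 18 lower, with a median of -0.12, or -0.05 without IgG 5 or anti-CD3 5. At the unadjusted level 2 were lower and 0 higher, where 8.68% of all genes were lower and 9.68% higher. With any of the 3 tools 0 passed. The lower ones were Pdx1, given above, and Glis3, a transcription factor, at -0.61 ± 0.27 (SE; edgeR adjusted p = 0.250). Mafa, a transcription factor of mature beta cells, was at 0.78 ± 0.38, and Ero1lb, an oxidase for insulin folding, at 0.26 ± 0.17 (SE; edgeR adjusted p = 0.290 and 0.421). Of 20 tested genes that mature beta cells keep low, 6 were higher and 14 lower, with a median of -0.10 and 0 past any of the 3 tools. This direction turned to a median of 0.27 (16 higher) with the acinar covariate, 0.03 (11 higher) without IgG 6 and 0.05 (11 higher) without IgG 5 and IgG 6. At the unadjusted level 2 were higher and 0 lower, Ldha, lactate dehydrogenase A, at 0.90 ± 0.37 and Zfp36l1, an mRNA decay factor, at 0.79 ± 0.24 (SE; edgeR adjusted p = 0.220 and 0.122). Fcgrt, the neonatal Fc receptor, was at -0.85 ± 0.52 and Tgm2, a transglutaminase, at -0.70 ± 0.43 (SE; edgeR adjusted p = 0.392 and 0.394).

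**Figure D5:**
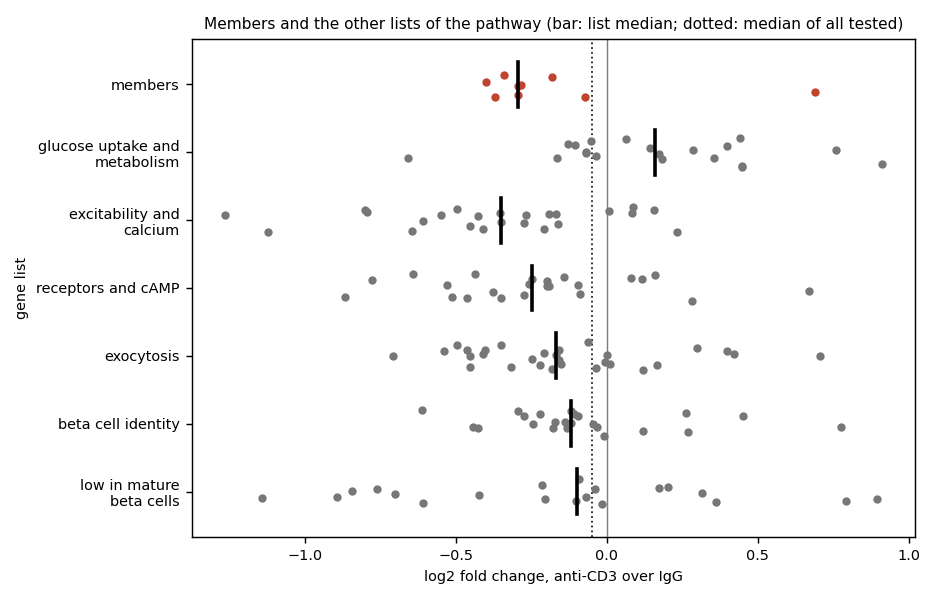
Log2 fold change, anti-CD3 over IgG (horizontal axis) of each gene in the 9 (red, top) and in 6 further lists of the pathway (grey). Thick bars give the list median, and the dotted line gives the median of all genes tested, -0.05. On this TMM scale the median is 0.16 for glucose uptake and metabolism and below 0 for the other lists. Per Ins2 the median of glucose uptake and metabolism is -0.20, where that of all genes is -0.31. Without IgG 6 the TMM median of the genes low in mature beta cells is 0.03.

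Markers of other cells had the following values in the same libraries, and their part in the results above was not tested. Of 34 tested acinar genes, 33 were higher, with a median of 0.72. T cell genes were lower in 19 of 19, with a median of -1.17, and took 0.000785% to 0.00808% of the counts in anti-CD3 and 0.00112% to 0.0826% in IgG. B cell genes were lower in 10 of 10, with a median of -1.29, at 0.00124% to 0.0291% of the counts in anti-CD3 and 0.000442% to 0.126% in IgG. Of their defining markers, Ms4a1 was at 0 in 1 library. Myeloid genes were lower in 11 of 11, with a median of -0.96, at 0.00301% to 0.0141% of the counts in anti-CD3 and 0.00366% to 0.147% in IgG. Stromal genes were lower in 12 of 12, with a median of -1.01, at 0.00556% to 0.0181% in anti-CD3 and 0.0117% to 0.116% in IgG. In these 5 lists 0 genes passed with edgeR or limma-voom, while DESeq2 called 4 acinar genes higher (Amy1, Prss2, Reg1 and Klk1) and 3 stromal genes lower (Col3a1, Col6a3 and Col1a1). At an unadjusted p under 0.05, 15 acinar genes were higher, and 5 T cell, 0 B cell, 2 myeloid and 6 stromal genes were lower. Over all genes tested, 9.68% were higher and 8.68% lower at that level, and 55.2% were lower at any p. DESeq2 called 3.96% of genes with an adjusted p. Among the islet cell lists, 10 tested alpha cell genes had a median of 0.03, 6 delta cell genes of -0.30 and 4 gamma cell genes of 0.52. Of these, 1 alpha cell gene was higher at an unadjusted p under 0.05 with edgeR, and 0 delta or gamma cell genes reached that level.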

How the data were processed

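Polyadenylated RNA of mouse islets was sequenced as read pairs in 6 anti-CD3 and 6 IgG libraries, grouped by the sample titles. The submitters' processing notes name Trimmomatic 0.36, STAR 2.5.2b, featureCounts (Subread 1.5.2) and DESeq2, with the genome GRCm38 (mm10), and give no options. Annotation release, strand setting and the treatment of reads with several positions: not given in the sources used here. Raw counts of 49315 genes were deposited as whole numbers. The count column of anti-CD3 5 carries the prefix "added-", which the labels do not explain, and it was assigned by its group and number. In the comparison table the authors deposited a signal for each library, which equals the count over 1 size factor. They also deposited the log2 fold change and p-value of anti-CD3 over IgG, per the file headers. The adjusted p-value of that table is NA for 2935 genes.

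The test was edgeR 4.0.16 in R 4.3.3, with filterByExpr (minimum count 10, minimum total 15), TMM and a robust quasi-likelihood F test with Benjamini-Hochberg adjustment over all 13115 genes. The Ins2-scaled fit used the Ins2 count of each library as its size. All these ratios share that 1 count, so a chance difference in Ins2 moves all of them together. Each SE was derived from the F statistic, and 95% intervals are not adjusted for the number of genes. Library totals set the counting precision, and raw counts of the 9 genes ran from 23 to 4624. The 3 within-library ratios had an exact permutation test. All tests were two-sided. Symbols came from the GENCODE mouse annotation (M21) for 48970 genes, with 17 more taken from the comparison table. Of 296 list entries, 293 had a gene in the table. Lists are described by counts and medians. Named genes were the 9, Ins2, the genes of the ratios, up to 2 genes per direction with the smallest p of each pathway list, and the 6 most alike genes outside predicted ones. Of these, 1 ratio and some genes are not reported here. The genes, lists and tests were chosen with earlier results of these data known.

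Alternatives were DESeq2 1.42.0, limma-voom (limma 3.58.1), limma on the log2 ratio, RLE and upper-quartile factors, TMM without acinar, immune and Reg genes, other filters, Ins1, Iapp or Pdx1 in place of Ins2, no pseudocount, the acinar score as a covariate, a replicate block, each library left out in turn, and IgG 5 and IgG 6 left out. An offset for transcript length (lowess, span 0.3) and levels by longest transcript were added after the data were seen. The fits were tested on simulated counts.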

Additional observations from a re-analysis of the deposited data

Results flagged for a closer look

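Of 42 groups of 6 libraries examined (log2 CPM and log2 ratio to Ins2 of the 9 genes, and the 3 within-library ratios), 2 held a library far from the others, where chance gives about 1 group in 20. Both were in IgG 1 and on the Ins2 scale. The log2 ratio of Slc30a8 to Ins2 was -9.22 in IgG 1, while the nearest IgG library stood at -7.52, a gap of 0.806 of the group's whole range. The log2 ratio of Cacna1d to Ins2 was -10.43 in IgG 1, while the nearest stood at -9.47, a gap of 0.652 of the range. Leaving out IgG 1 did not bring either gene past the test on either scale, but it moved the values. Per Ins2, Slc30a8 went from -0.39 to -0.58 (edgeR adjusted p = 0.204). On the TMM scale Slc30a8 went from -0.07 to -0.22 and Cacna1d from -0.18 to -0.27.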

How the results depend on the processing

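In all 23 alternatives of the TMM fit, 0 of the 9 genes passed, and per Ins2 0 passed in 21 of 22, the exception being Pdx1 in place of Ins2, with 1 (G6pc2, 1.11). That setting reversed Slc2a2 (0.10), Abcc8 (0.055), Kcnj11 (0.025), Slc30a8 (0.39), Glp1r (0.15), Ucn3 (0.21), Trpm5 (0.19) and Cacna1d (0.23). Slc30a8 also reversed without IgG 5 and IgG 6 (0.0066) and ran from -0.22 to 0.056 with 1 library left out. Cacna1d reversed with the length offset (0.025, and 0.11 per Ins2). The difference of Kcnj11 over Abcc8 was 0.053 without IgG 5 and IgG 6 and -0.11 to 0.045 with 1 library left out, and that of Cacna1d over Cacna1c -0.14 to 0.27. The count of all genes past the test, 10, was 469 with DESeq2, 135 with limma-voom, 6 with upper-quartile factors, 167 without a filter, 0 with the acinar score, 1 without IgG 5 and IgG 6, 4 with the length offset, and 0 to 203 with 1 library left out, the highest without anti-CD3 2. Per Ins2 it was 0, and 1 with Ins1, 1 with Iapp, 2130 with Pdx1, 438 without a filter, 1 with the acinar score and 0 to 1 with 1 library left out. The cause was not tested. The labels do not say whether replicate numbers pair the libraries, and 6 pairs cannot settle it. Above 0.1 correlated 3 of 6 same-numbered pairs, from -0.29 for number 5 to 0.55 for number 3. Of 6 anti-CD3 libraries, 2 correlated best with their own number. With the replicate number as a block, 0 genes passed on the TMM scale and 237 per Ins2, and 0 of the 9 on either. The mean difference of a within-library ratio is the same with that block by construction, so the block is no check of it. Counts outside acinar genes, 3020558 to 10830326 per library, limit the precision of low genes such as Trpm5.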
